A study of Mus musculus with 4 samples.

Results

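Transforming growth factor beta (TGF-beta) signalling was followed through 9 genes of the mouse common bile duct: the ligands Tgfb1, Tgfb2 and Tgfb3, the receptors Tgfbr1, Tgfbr2 and Tgfbr3, the latency protein gene Ltbp1, the inhibitor gene Smad7 and the secreted target gene Tgfbi. They were chosen by symbol with earlier results of these data known, and were matched by Ensembl identifier. They are 9 of the 30406 genes listed in all 4 libraries. Single cells of dissected and enzymatically dissociated ducts were captured with 10x 3′ chemistry, version 3, without sorting for a cell type. There were 3 wild-type libraries, here wild type 1, 2 and 3, and 1 library labelled Prom1_BcatGOF (here GOF), from a mosaic Ctnnb1 gain of function. Both groups are labelled as receiving no treatment. Ctnnb1 encodes beta-catenin, the effector of canonical Wnt signalling, and Prom1 encodes prominin 1, a surface protein of duct epithelium. The labels give no allele, driver, age or number of animals, and mosaic means that a library may hold cells with and without the altered gene. Whether the wild-type libraries are separate animals is not stated, and p-values therefore measure the spread between these samples only, which may be technical.

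TGF-beta ligands are secreted as latent dimers held by their propeptide, which is linked to binding proteins such as LTBP1 in the extracellular matrix. Integrins and thrombospondin 1 release the active ligand. It binds TGFBR2, which recruits and phosphorylates TGFBR1, and TGFBR1 phosphorylates SMAD2 and SMAD3. TGFBR3, also called betaglycan, is a co-receptor that presents TGF-beta2 in particular. SMAD7 is induced by the pathway and blocks TGFBR1, and TGFBI is a matrix protein named for its induction by TGF-beta. In bile ducts the pathway is known for restraining epithelial growth and for driving fibrosis of the duct wall.

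The promoters of 2 ligand genes are shown because Tgfb2 is the member on which the comparison of the libraries turned, while no change of Tgfb1 passed the test in any cell type. Each is the 250 bases before the transcription start in RefSeq on GRCm38.p6, 5′ to 3′ on the strand of the gene, with matches to the motifs searched in capitals.
Tgfb1, chr7:25686752-25687001, plus strand: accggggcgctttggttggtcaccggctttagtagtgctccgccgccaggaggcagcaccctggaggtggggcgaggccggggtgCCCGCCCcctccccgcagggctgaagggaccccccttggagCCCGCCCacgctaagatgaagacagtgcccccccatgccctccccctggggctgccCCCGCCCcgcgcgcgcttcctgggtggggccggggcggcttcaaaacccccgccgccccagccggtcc
Tgfb2, chr1:186705990-186706239, minus strand: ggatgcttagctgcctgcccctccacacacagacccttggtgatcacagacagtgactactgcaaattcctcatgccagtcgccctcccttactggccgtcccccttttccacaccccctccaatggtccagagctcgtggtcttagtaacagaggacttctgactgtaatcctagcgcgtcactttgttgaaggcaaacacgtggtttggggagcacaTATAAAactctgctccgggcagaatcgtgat
The Tgfb1 window is 75.2% G and C and holds 3 GC boxes on the opposite strand, which start 165, 124 and 68 bases before the start. The Tgfb2 window is 53.6% G and C and holds a TATA box 31 to 26 bases before the start. Of 32851 windows of 250 bases before RefSeq starts, searched on both strands, 23.4% hold the GC box GGGCGGG and 12.37% the TATA box TATAAA. A TCF/LEF match (ATCAAAG) is in 3.205% of windows, an AP-1 match (TGANTCA) in 6.749%, a cyclic AMP response element (TGACGTCA) in 1.546% and a palindromic SMAD match (GTCTAGAC) in 0.1674%. None of these 4 strings is in either window shown.

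The GOF library held 10796 barcodes and 113596685 UMIs (unique molecular identifiers, each standing for 1 captured RNA), and the wild-type libraries held 2649 to 6253 barcodes and 9558637 to 43737469 UMIs. The median mitochondrial share was 3.01% in the GOF library, and the wild type ranged from 10.1% to 14.8%. Pairs of libraries shared 5 to 19 barcodes, at most 0.378% of the smaller. Headers name Cell Ranger 7.0.0 for the GOF matrix and 3.0.2 for the wild-type matrices, so software version and group cannot be told apart. Cells were gated by raw lineage markers, and a class is written "-like". Of the kept cells, 18.9% passed no single gate in the GOF library, against 5.66%, 12.4% and 10.9% in the wild type. The GOF, wild type 1, 2 and 3 libraries gave 4571, 2940, 1480 and 1175 epithelial-like cells, 324, 87, 119 and 188 fibroblast-like cells, and 951, 77, 113 and 101 macrophage-like cells. Markers used by the gate sat in their own classes, which the gate itself brings about. Epithelial Epcam was at 1653 to 2042 CPM in epithelial-like sums and at most 63.4 CPM in macrophage-like sums. Macrophage C1qa was at 1477 to 4017 CPM in macrophage-like sums and at most 4.8 CPM in epithelial-like sums. For 6 macrophage genes outside the gate, the median level in epithelial-like sums was 0.15% to 0.585% of the macrophage-like level. For 6 or 7 epithelial genes outside it, the median in macrophage-like sums was 1.5% to 3.3% of the epithelial-like level. CPM (counts scaled to parts in 10 to the power 6) relates the UMIs of a gene to all UMIs of its class in 1 library. The Ctnnb1 level was 273 CPM in GOF epithelial-like cells and 565, 547 and 436 CPM in the wild type. The Wnt feedback gene Axin2 was at 103 CPM against 2.85, 6.19 and 6.01 CPM.

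The first comparison asked which cell types of the normal duct express each gene. All 9 members differed among the 8 types that had at least 20 cells in every wild-type library (edgeR quasi-likelihood test, Benjamini-Hochberg adjusted p from 1.04e-14 for Tgfbi to 3.18e-05 for Smad7). Of the 8356 genes tested, 75.4% did so, and the members' count is to be read against that share. Ligand RNA was split by cell type: Tgfb1 in myeloid and endothelial-like cells, Tgfb2 in lymphatic endothelial, macrophage and stromal-like cells, and Tgfb3 in mesothelial, fibroblast and lymphatic endothelial-like cells. Tgfbr2 was highest in lymphatic endothelial-like cells and Tgfbr3 in fibroblast, mesothelial and both endothelial-like classes. Mean levels over the 3 libraries were lowest in epithelial-like and tuft-like cells for Tgfb1, Tgfbr2 and Tgfbi.

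Tgfb1, the ligand of immune and endothelial cells in most tissues, was at 379, 298 and 284 CPM in macrophage-like cells of wild type 1, 2 and 3. It was at 295, 201 and 177 CPM in lymphatic endothelial-like cells and at 179, 51.7 and 115 CPM in blood endothelial-like cells. Neutrophil-like cells spanned 21.9 to 428 CPM. These 4 types overlapped with their neighbours in the order of mean levels. A gap lay between blood endothelial-like cells and fibroblast-like cells at 6.44 to 30.3 CPM, which overlapped with mesothelial-like cells. The means of epithelial and tuft-like cells were the lowest of the tested types, with epithelial-like cells at 13.3, 9.66 and 7.56 CPM. Among classes too small to test, monocyte-like cells were at 285 to 600 CPM and T, NK and innate lymphoid-like cells at 74.3 to 289 CPM. Against the mean of the other types, Tgfb1 was higher in macrophage-like cells by 3.13 on the log2 scale (SE 0.26, edgeR adjusted p = 4.9e-11) and lower in epithelial-like cells, with a log2 difference of -2.48 (SE 0.34, adjusted p = 7.39e-07). Epithelial-like cells, the most numerous class, nevertheless held 38.5% of the gated Tgfb1 UMIs of wild type 1, 25.5% in wild type 2 and 22.1% in wild type 3.

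Tgfb2, the ligand that needs the co-receptor betaglycan for strong binding, was at 177, 153 and 102 CPM in lymphatic endothelial-like cells. No other type reached that range. Macrophage-like cells followed at 95.2, 35.7 and 52.2 CPM, fibroblast-like cells at 32.2, 67.4 and 54.5 CPM, blood endothelial-like cells at 21.1, 86.1 and 22.9 CPM and mesothelial-like cells at 46.1, 34.8 and 34.6 CPM. These 4 types overlapped. Epithelial-like cells held only 2.02, 4.03 and 1.37 CPM, and no Tgfb2 UMI was seen among 656700, 35067 and 45590 UMIs of neutrophil-like cells. A class at 0 leaves no finite contrast for Tgfb2, so the types were also compared without neutrophil-like sums, a choice made after the data were seen. In that fit Tgfb2 was higher in lymphatic endothelial-like cells by 2.62 on the log2 scale (SE 0.37, edgeR adjusted p = 6.02e-06, a call that 20.8% of genes shared). It was also higher in macrophage-like cells by 1.5 (SE 0.32, adjusted p = 5.32e-04, 39.2% of genes called). In epithelial-like cells the log2 difference was -3.81 (SE 0.35, adjusted p = 3.27e-09, 39.3% of genes called).

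Tgfb3, a ligand of mesenchymal cells, was at 75.9, 25 and 91.4 CPM in mesothelial-like, 61.2, 27.4 and 36.3 CPM in fibroblast-like and 39.3, 20.8 and 61.1 CPM in lymphatic endothelial-like cells. The 3 ranges overlapped and lay above epithelial-like cells at 9.01, 10.8 and 1.89 CPM. The log2 difference from the other types was 3.11 in mesothelial-like cells (SE 0.45, edgeR adjusted p = 2.54e-06) and 2.52 in fibroblast-like cells (SE 0.56, adjusted p = 9.48e-04). Epithelial-like cells, the most numerous class, held 71.7%, 63.9% and 12% of the gated Tgfb3 UMIs in wild type 1, 2 and 3. In wild type 3 mesothelial-like cells held the largest share, 40.2%. Smooth muscle and pericyte-like cells, too few to test, were at 157, 87.9 and 145 CPM.

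Ltbp1, whose product anchors latent ligand in the matrix, was also led by smooth muscle and pericyte-like cells, at 394, 215 and 159 CPM from 7, 36 and 54 cells. Among the tested types it was at 70.9, 14.7 and 115 CPM in fibroblast-like, 29.5, 48.6 and 67.9 CPM in lymphatic endothelial-like and 53.8, 33.9 and 29.6 CPM in mesothelial-like cells. These overlapped, and neutrophil-like cells again had no UMI. Without the neutrophil-like sums Ltbp1 was higher in fibroblast-like cells by 2.30 on the log2 scale (SE 0.40, edgeR adjusted p = 8.65e-05, 22.7% of genes called) and in mesothelial-like cells by 1.5 (SE 0.37, adjusted p = 0.00325, 25.2% of genes called).

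Receptor RNA was found in every type, at different levels. Tgfbr2, the ligand-binding receptor, was at 433, 541 and 339.5 CPM in lymphatic endothelial-like cells. Blood endothelial, fibroblast and mesothelial-like cells overlapped at 153 to 251 CPM, below that range. Macrophage-like cells came next at 58.5 to 106 CPM, and epithelial-like cells were at 25.8, 23.6 and 14.8 CPM. The log2 difference from the other types was 2.22 in lymphatic endothelial-like cells (SE 0.23, edgeR adjusted p = 1.31e-08) and -2.41 in epithelial-like cells (SE 0.27, adjusted p = 1.85e-08). Tgfbr1, the signalling receptor, had another order. It was at 347, 199.6 and 0 CPM in neutrophil-like cells, the last value from 23 cells, and at 135, 50.6 and 93.8 CPM in fibroblast-like cells. Lymphatic endothelial-like cells, the top type for Tgfbr2, were last for Tgfbr1 at 9.83, 0 and 6.79 CPM, with a log2 difference of -3.20 (SE 1.02, adjusted p = 0.0251). Those sums held only 101705, 144134 and 147258 UMIs, so the values rest on very few counts. The larger GOF sum of this type, with 780377 UMIs, was at 35.9 CPM and was not tested against the wild type.

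Tgfbr3 marked stroma, mesothelium and endothelium. It was at 199.8, 107 and 278 CPM in fibroblast-like cells, 129.7, 109.9 and 222 CPM in mesothelial-like cells, 137, 103 and 149 CPM in blood endothelial-like cells and 68.8, 139 and 109 CPM in lymphatic endothelial-like cells. Each overlapped with the next, and no value of the other 4 types exceeded 21.9 CPM. The log2 differences of the 4 higher types ran from 2.16 (lymphatic endothelial, SE 0.42) to 3.40 (fibroblast, SE 0.29, edgeR adjusted p = 1.6e-10). In macrophage-like cells, which carried Tgfb2, Tgfbr3 was at 0, 0 and 7.46 CPM, and the log2 difference was -4.57 (SE 0.82, adjusted p = 5.53e-05).

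Smad7 and Tgfbi, both known as targets of the pathway, were placed differently. Smad7 was found in blood endothelial-like cells at 52.6, 51.7 and 68.8 CPM, in neutrophil-like cells at 76.1, 28.5 and 21.9 CPM and in epithelial-like cells at 26.5, 32.3 and 31.3 CPM. The ranges of the 3 overlapped in that order, and lymphatic endothelial-like cells were lowest at 0, 6.94 and 0 CPM. Epithelial-like cells held 87.7%, 85.2% and 83.9% of gated Smad7 UMIs. Tgfbi was at 466, 371 and 197 CPM in neutrophil-like, 364, 149.9 and 325 CPM in macrophage-like and 197, 229 and 204 CPM in lymphatic endothelial-like cells. Monocyte-like cells, too few to test, were at 579, 849.8 and 603 CPM. Epithelial-like cells were at 0.67, 1.59 and 1.20 CPM, a log2 difference of -5.66 (SE 0.76, edgeR adjusted p = 5.41e-07). Tgfbi in epithelial-like sums stood at 0.185%, 1.06% and 0.371% of its macrophage-like level, beside medians of 0.150%, 0.550% and 0.236% for 6 macrophage genes that mark free RNA, so no epithelial expression is read from it.

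**Figure D1:**
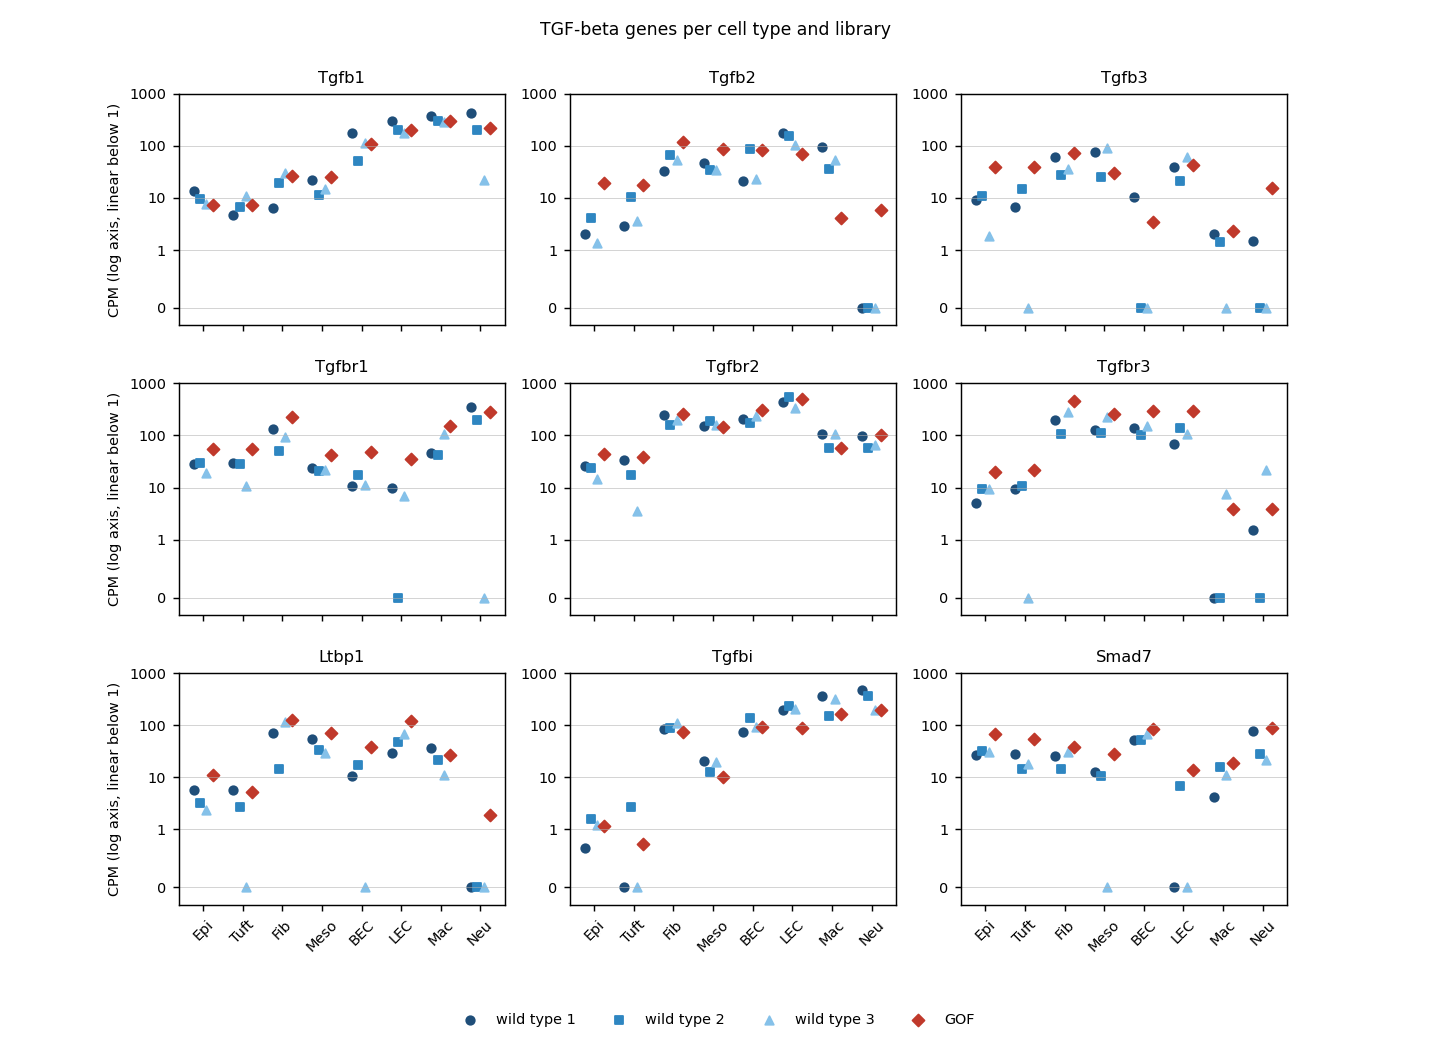
Level of each member in CPM (vertical log axis, linear below 1) in 8 gated cell types of each library: epithelial (Epi), tuft, fibroblast (Fib), mesothelial (Meso), blood endothelial (BEC), lymphatic endothelial (LEC), macrophage (Mac) and neutrophil-like (Neu) cells. Blue points are wild type 1 to 3 and red diamonds the GOF library. Tgfb2 of the GOF library lies above all wild-type points in Epi, Tuft, Fib, Meso and Neu and below them in Mac and LEC.

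Over all types, 7 members had a finite contrast in every type. Lymphatic endothelial-like cells differed from the other types in 7 of 7, with 5 higher and 2 lower, where 18.2% of all genes were called (13.4% higher, 4.81% lower). Fibroblast-like cells differed in 6 of 7 with 5 of them higher, beside 23.5% of genes (18.5% higher, 5.0% lower). Mesothelial-like cells differed in 5, of which 3 were higher (26.2%; 20.4% higher, 5.73% lower), and neutrophil-like cells in 5, of which 4 were higher (43.0%; 20.4% higher, 22.6% lower). Epithelial-like cells differed in 5 of 7, with 4 of them lower (38.5%; 27.3% higher, 11.2% lower), and tuft-like cells in 4, all lower (29.9%; 20.2% higher, 9.68% lower). Macrophage-like cells differed in 4, of which 3 were higher (33.7%; 21.3% higher, 12.4% lower), and blood endothelial-like cells in 2, both higher (12.7%; 9.69% higher, 2.97% lower). The median log2 difference of the 7 was 2.22 in lymphatic endothelial-like cells and -1.75 in epithelial-like cells, where the medians over all genes were -0.01 and 0.16.

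Other genes of the pathway were taken from a list of 58 in 5 groups, of which 42 passed the filter on low counts in the wild-type types and 38 differed among them, beside 75.4% of all genes. In fibroblast-like cells 20 of 42 were higher and 1 lower (18.5% of all genes higher, 5.0% lower), and 9 of 13 latency and activation genes were among the higher. Fbn1, the fibrillin that LTBPs attach to, was at 860, 337 and 369 CPM there. In epithelial-like cells 5 were higher and 11 lower (27.3% of all genes higher, 11.2% lower). The milieu molecules that hold latent TGF-beta on cell surfaces divided by lineage. Nrros was at 132, 166 and 183 CPM in macrophage-like cells and at most 1.12 CPM in epithelial-like cells. Lrrc32 was at 108, 97.1 and 102 CPM in lymphatic endothelial-like and 70.9, 40.0 and 106 CPM in fibroblast-like cells, and no macrophage-like sum of the wild type exceeded 1.43 CPM. Ltbp4, another latency protein gene, reached 1809, 1249 and 754 CPM in lymphatic endothelial-like cells. Eng, a co-receptor of endothelium, was at 716, 499 and 413 CPM in blood endothelial-like cells.

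Likeness was measured by Pearson's r of log2(CPM + 1) over 24 points, 8 types in 3 wild-type libraries, among 12082 genes with at least 10 CPM in some type. The points share libraries and depth, so r is a description. Tgfb1 was most like Lyl1 (r = 0.92), Fli1 (0.90) and Gngt2 (0.89), and Tgfb2 like Pros1 (0.95), Fcgrt (0.92) and Cyth3 (0.91). Tgfb3 was most like Fhl1 (0.94), Tmem198b (0.93) and Pkia (0.90). Among receptors, Tgfbr1 went with Rassf5 (0.77), Aup1 (0.77) and Tbl1xr1 (0.76), Tgfbr2 with Thbd (0.90), Nxn (0.89) and Sept7 (0.89), and Tgfbr3 with Cavin3 (0.93), Fbln2 (0.92) and Fmo2 (0.92). Ltbp1 was nearest Slc12a4 (0.95), Fgfr1 (0.88) and Tpst1 (0.87), Tgfbi nearest Fxyd5 (0.93), Msn (0.93) and Ppp1r18 (0.92), and Smad7 nearest Rcbtb2 (0.67), Upp1 (0.67) and Ly6a (0.66). Between members the highest values were 0.82 for Tgfb2 with Ltbp1 and 0.81 for Tgfb1 with Tgfbi, while Tgfb1 with Tgfb3 gave -0.27.

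The second comparison set the GOF library against the wild type within each cell type, with 1 library against 3 and 2 residual degrees of freedom, the lone library being assumed to vary like the others. In epithelial-like cells 2 of 9 members changed, Tgfb2 and Smad7, both upward (edgeR), where 16.0% of 15564 genes were called, 11.7% higher and 4.25% lower. In macrophage-like cells 1 of 7 changed, Tgfb2, which fell (10.2% of genes called, 2.27% lower and 7.97% higher). In lymphatic endothelial-like cells 3 of 6 changed (16.6% of genes called, 11.5% higher and 5.09% lower): Tgfbr3 rose, and Tgfb2 and Tgfbi fell. In tuft-like cells Tgfb3 and Smad7 rose, 2 of 6 (14.6% of genes called, 10.8% higher and 3.8% lower). No member passed in fibroblast-like cells (0 of 9; 5.14% of genes called, 4.36% higher and 0.782% lower) or mesothelial-like cells (0 of 9; 5.64%, 4.76% higher and 0.884% lower). None passed in blood endothelial-like cells (0 of 4; 16.3%, 11.6% higher and 4.71% lower) or neutrophil-like cells (0 of 5; 3.92%, 3.05% higher and 0.864% lower). In those 4 types 0, 3, 1 and 0 members had an unadjusted p under 0.05 in edgeR, and DESeq2 called 0 in each.

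In epithelial-like cells Tgfb2 was at 18.9 CPM in the GOF library against 2.02, 4.03 and 1.37 CPM in wild type 1, 2 and 3. All wild-type values were below it, and the log2 fold change was 2.54 (SE 0.47, edgeR adjusted p = 0.0222). Without wild type 1 it was 2.38 with an adjusted p of 0.0709, and over all alternatives the adjusted p ran from 6.09e-04 to 0.0709. After every cell was thinned to 2000 UMIs, 3.48% of GOF cells had a Tgfb2 UMI (138 of 3961; exact 95% interval 2.94% to 4.10%), against 0.322%, 0.998% and 0.383% of wild-type cells; unthinned shares were 11%, 1.97%, 2.23% and 0.681%. Neutrophil-like cells, which had no Tgfb2 UMI in the wild type, were at 5.79 CPM in the GOF library from 3 UMIs. Epithelial-like cells held 45.7% of gated Tgfb2 UMIs in the GOF library, against 34.0%, 24.4% and 9.76% for the wild type.

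Smad7 was at 68.6 CPM in GOF epithelial-like cells with wild-type levels of 26.5, 32.3 and 31.3 CPM, with no overlap. The log2 fold change was 0.81 (SE 0.20, edgeR adjusted p = 0.0454), and the adjusted p was 0.0638 without wild type 1 and 0.138 without wild type 2. Tgfb3 was at 38.4 CPM in the GOF library with wild-type levels of 9.01, 10.8 and 1.89 CPM. Its log2 fold change of 1.98 (SE 0.63) missed the threshold at an adjusted p of 0.0835, with wild type 3 far below the other libraries. Without wild type 3 the adjusted p was 0.00356, without wild type 2 it was 0.0317, and with DESeq2 it was 0.0334. Of 9 alternatives, 5 gained the call and 4 left Tgfb3 uncalled, with an edgeR adjusted p of up to 0.154.

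The receptors and Ltbp1 also lay above all wild-type values in GOF epithelial-like cells without passing the test. Tgfbr1 was at 55.1 CPM against 28.7, 29.4 and 18.7 CPM (log2 difference 0.72, SE 0.26, edgeR adjusted p = 0.11). Tgfbr2 was at 43.4 CPM against 25.8, 23.6 and 14.8 CPM (0.63, SE 0.30, adjusted p = 0.189). Tgfbr3 was at 20.3 CPM against 5.15, 9.56 and 9.28 CPM (0.99, SE 0.38, adjusted p = 0.124). Of the 9 members, Tgfb1 at 7.24 CPM was alone in lying below all wild-type values, with a log2 difference of -0.89 (SE 0.37, adjusted p = 0.145). The members' median log2 difference was 0.81 and that of all genes 0.00. Without the TMM factors that align the libraries, the median over all genes moved to 0.38, and 5 of 9 members were called.

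**Figure D2:**
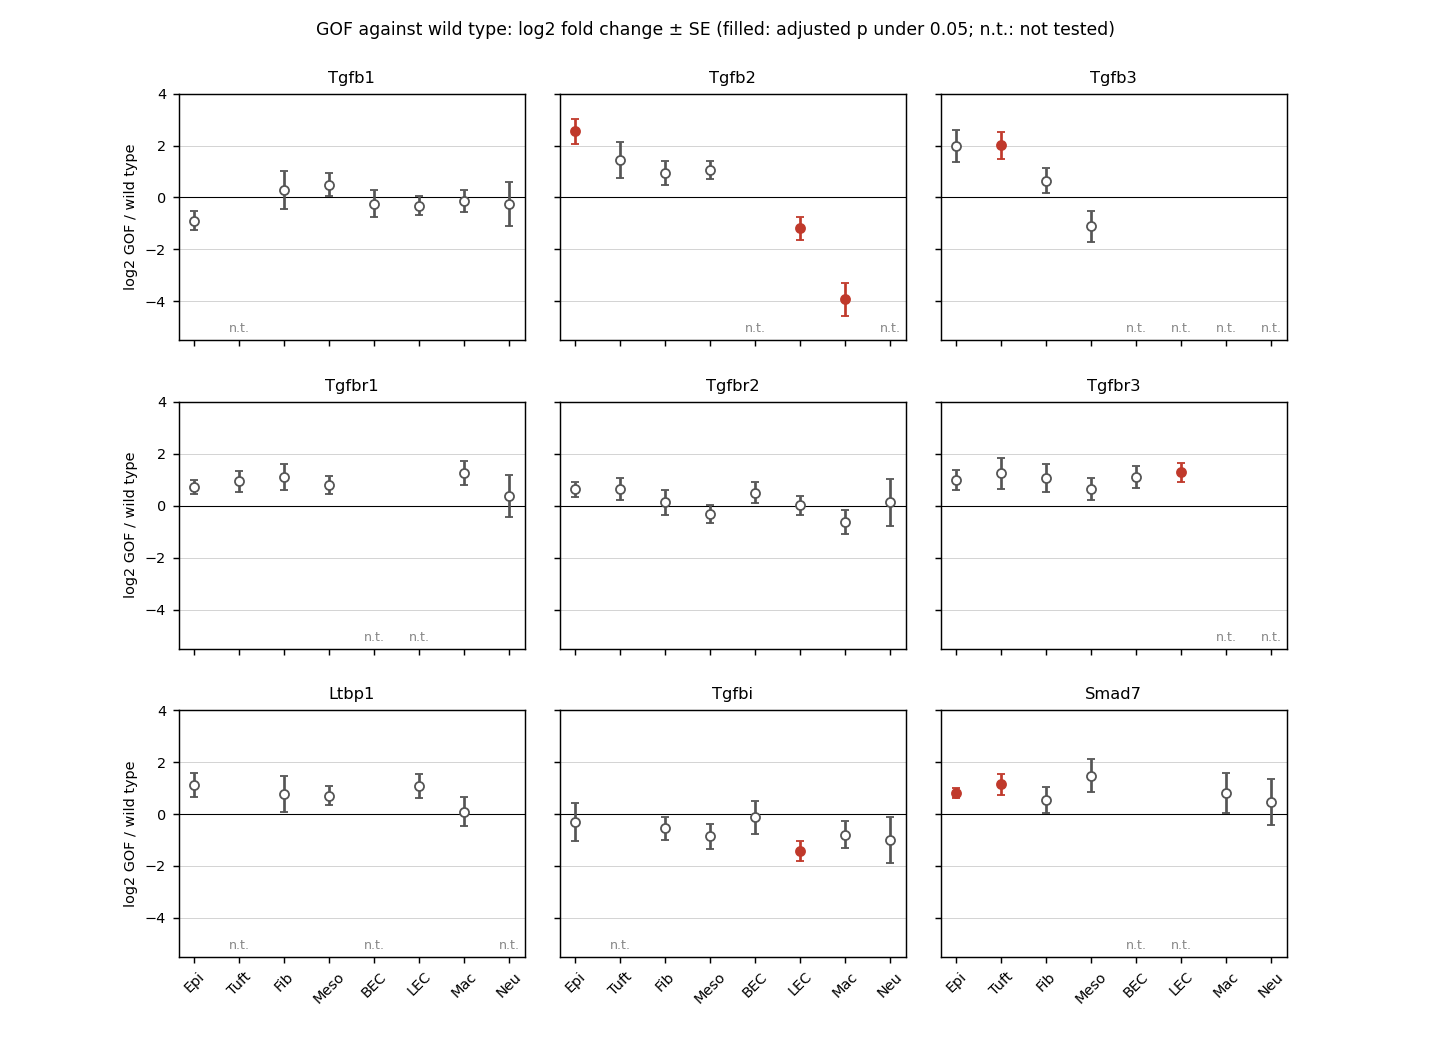
Log2 fold change of the GOF library over the 3 wild-type libraries, with its standard error, for each member in each cell type (labels as in the plot of levels). Filled red points passed an adjusted p of 0.05 and "n.t." marks genes below the count filter; Tgfb2 is positive in Epi at 2.54 and negative in Mac at -3.93.

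Macrophage-like cells showed the opposite for Tgfb2. It was at 4.09 CPM in the GOF library, 33 UMIs of 8069846, with wild-type levels of 95.2, 35.7 and 52.2 CPM. All 3 wild-type values lay far above the GOF value, the log2 fold change was -3.93 (SE 0.65, edgeR adjusted p = 0.00127), and it was called under all 9 alternatives (-4.26 to -3.36). After thinning to 2000 UMIs, 0.438% of GOF cells had a Tgfb2 UMI (4 of 913) against 7.14%, 7.22% and 6.56% of 70, 97 and 61 wild-type cells; unthinned shares were 1.79%, 20.8%, 14.2% and 8.91%. Tgfb1, the main ligand of these cells, was at 301 CPM against 379, 298 and 284 CPM, inside the wild-type range. Tgfbr1 was at 150.4 CPM against 45.5, 42.8 and 104 CPM, a log2 difference of 1.27 (SE 0.47, adjusted p = 0.103; 0.00379 without wild type 3). Tgfbr2, Tgfbi, Ltbp1 and Smad7 did not pass, with adjusted p from 0.392 to 0.943.

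The difference between the epithelial and macrophage effects came from a model with a term for each library, which removes a shift that a library gives alike to both types. For Tgfb2 this interaction was 6.54 on the log2 scale (SE 0.73, edgeR adjusted p = 7.25e-16; 5.78 to 7.39 over the alternatives). Tgfb2 was the 1 of 9 members called, where 2.59% of all genes were (1.5% higher, 1.1% lower). Between epithelial and fibroblast effects 0 of 9 members were called, with 2 at an unadjusted p under 0.05, 0 calls by DESeq2 and 0.69% of all genes called by edgeR (0.532% higher, 0.159% lower). Tgfb2 in fibroblast-like cells was at 117 CPM against 32.2, 67.4 and 54.5 CPM, and its epithelial minus fibroblast difference was 1.59 (SE 0.54, adjusted p = 0.316). For Tgfb3 that difference was 1.51 (SE 0.58, adjusted p = 0.528; 0.0354 without wild type 2).

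Macrophage-like cells of the duct region may include cells of the body cavity type, marked by Gata6, Icam2, Selp, Prg4, Garnl3 and Alox15, a list of 6 genes chosen after the Tgfb2 values were seen. Their sums were lower in the GOF library: Prg4 was at 87.0 CPM against 838, 791 and 563 CPM, Icam2 at 25.8 against 229.7, 317 and 67.2 CPM, and Alox15 at 16.1 against 515, 217 and 22.4 CPM. Cells with a UMI of any of the 6 made up 20.7% of GOF macrophage-like cells (197 of 951) and 40.3%, 44.2% and 9.90% in wild type 1, 2 and 3. Their part in the Tgfb2 result was not tested by a model, but both kinds of cell were measured. Intervals here are 95% Poisson intervals, which cover counting error only, and medians of UMIs per cell were 9614, 9001, 7870.5 and 3629 with and 7381, 4166, 4427 and 2357 without such a UMI.

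In wild type 1, Tgfb2 was at 174 CPM in cells with a cavity gene (127 to 232; 45 UMIs in 15 of 31 cells) and at 4.46 CPM in the others (1 UMI in 46 cells). In wild type 2 it was at 53.4 CPM with (33.1 to 81.7) and 13 CPM without (3.54 to 33.3), and in wild type 3 at 195 CPM with (78.5 to 402; 7 UMIs) and 30.2 CPM without (12.1 to 62.1; 7 UMIs). In the GOF library it was at 10.5 CPM with (6.74 to 15.7; 24 UMIs) and 1.55 CPM without (0.711 to 2.95; 9 UMIs). Within each library Tgfb2 was higher in cells with a cavity gene, and among those cells the GOF level lay below all 3 wild-type intervals. A cell joined that group by 1 UMI of any cavity gene, and the sums of Prg4, Icam2 and Alox15 were lower in the GOF library. The group may therefore hold unlike cells in different libraries, and a fall of Tgfb2 within cavity-type cells was not tested. Ltbp1, like Tgfb2, was higher with a cavity gene within each library, but its GOF level there was not below the wild type. With a cavity gene it was at 87.2 CPM in the GOF library (75.5 to 100.2) with wild-type levels of 69.5, 38.2 and 55.8 CPM, while without one it was at 2.94 CPM against 0, 0 and 4.31 CPM, where the counts of 0 allow up to 16.5 and 12 CPM. Tgfb1 with and without a cavity gene was at 378 and 379 CPM in wild type 1, 249 and 361 CPM in wild type 2, 195 and 297 CPM in wild type 3, and 287 and 306 CPM in the GOF library. Its intervals overlapped in each library. Tgfbi was lower with a cavity gene in every library. With and without one it was at 301 and 437 CPM in wild type 1 and 43.3 and 286 CPM in wild type 2. In wild type 3 it was at 83.6 CPM, from 3 UMIs, and 362 CPM, and in the GOF library at 139 and 176 CPM. Of these pairs, the intervals overlapped in wild type 1 only.

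**Figure D3:**
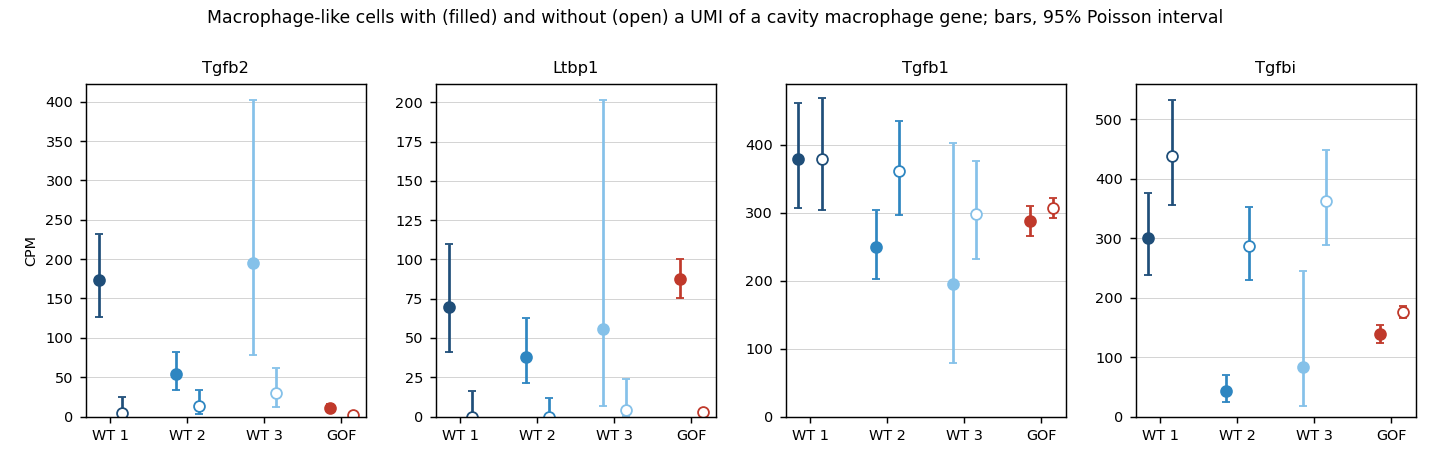
Level in CPM (linear axis, own scale per panel) of Tgfb2, Ltbp1, Tgfb1 and Tgfbi in macrophage-like cells of each library, split into cells with (filled) and without (open) a UMI of any of 6 cavity macrophage genes; bars are 95% Poisson intervals. Tgfb2 and Ltbp1 sit in the filled points, and the filled GOF point is at 10.5 CPM for Tgfb2 but 87.2 CPM for Ltbp1.

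Lymphatic endothelial-like cells, of which the GOF library gave 125 and the wild type 36, 46 and 51, carried the other member changes outside epithelium. Tgfbr3 was at 297 CPM against 68.8, 139 and 109 CPM (fold change on the log2 scale 1.29, SE 0.37, edgeR adjusted p = 0.00656), and DESeq2 gave an adjusted p of 0.327. Tgfbi was at 88.4 CPM against 197, 229 and 204 CPM (-1.42, SE 0.39, adjusted p = 0.00461), and DESeq2 gave 0.189. Tgfb2 was at 69.2 CPM against 177, 153 and 102 CPM (-1.20, SE 0.43, adjusted p = 0.0405). In each gene the GOF value lay outside the wild-type range. The Tgfb2 call was kept in 1 of 9 alternatives, where the adjusted p ran from 0.00728 to 0.475.

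Tuft-like cells, a chemosensory epithelial type, had the tuft marker Trpm5 at 209 CPM in the GOF library, with wild-type values of 249, 224 and 439.8 CPM. Trpm5 is a marker of the gate, so its presence follows from the gate. Only the least number of tuft markers was found in 56 of 247 GOF cells, against 1 of 76, 3 of 74 and 6 of 64 wild-type cells. Tgfb3 was at 38.4 CPM in GOF cells with wild-type levels of 6.63, 14.6 and 0 CPM (fold change on the log2 scale 2.00, SE 0.52, edgeR adjusted p = 0.00526). Smad7 was at 53.2 CPM against 28.4, 14.6 and 17.9 CPM (1.15, SE 0.40, adjusted p = 0.0471). The GOF values lay above all wild-type values for both genes. In the GOF library the tuft-like levels of Tgfb1, Tgfb2 and Tgfb3 were 100%, 95.1% and 100.2% of the epithelial-like levels. The median for 7 epithelial genes outside the gate was 74.6%, and it was 65.6%, 64.3% and 59.3% in the wild type. Tuft-like cells are epithelial themselves, so these genes cannot separate free RNA from their own expression. The part of free RNA in the result was not tested. Both calls were lost with DESeq2 (adjusted p = 0.385 for Tgfb3 and 0.58 for Smad7) and without wild type 2 (0.413 and 0.475). Without wild type 2 no gene of this type was called (0 of 10033), so that loss is not particular to the members. DESeq2 called 435 of 9670 genes, where the main fit called 1414. The Smad7 call was also lost with the stricter gate (0.131) and with at least 200 genes per cell (0.0532), 4 of 9 alternatives in all.

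In the remaining types the members differed by less than the test could call. In mesothelial-like cells, whose wild type 2 and 3 sums also carried a median of 5 and 4 of 9 fibroblast markers, Tgfb2 was at 88.1 CPM against 46.1, 34.8 and 34.6 CPM (log2 difference 1.06, SE 0.33, edgeR adjusted p = 0.113). In fibroblast-like cells Tgfbr3 was at 463 CPM against 199.8, 107 and 278 CPM (1.06, SE 0.54, adjusted p = 0.327) and Tgfbr1 at 226 CPM against 135, 50.6 and 93.8 CPM (1.10, SE 0.50, adjusted p = 0.274). In blood endothelial-like cells Tgfbr3 was at 299.8 CPM against 137, 103 and 149 CPM (1.10, SE 0.43, adjusted p = 0.0654). The lymphatic regulator gene Prox1 was at 181 CPM in that GOF sum against 21.1, 0 and 0 CPM, and its part in the result was not tested.

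The differences of all genes moved with intron length. In epithelial-like cells the median log2 difference was -0.41 for genes with under 5 kb of intron, 0.02 for 20 to 50 kb, 0.42 for 50 to 100 kb, 0.92 for 100 to 200 kb and 2.07 above 200 kb, where 55.6% of genes were called higher. The other tested types showed the same order at their ends: the median was -0.47 under 5 kb and 1.89 above 200 kb in macrophage-like cells, and -0.41 and 1.90 in lymphatic endothelial-like cells. Whether intronic reads were counted is not given in the sources used here, and the part of intron length in any member's difference was not tested.

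The genes lie on GRCm38 at 7:25687002-25705077 (Tgfb1), 1:186622792-186705989 (Tgfb2), 12:86056745-86079041 (Tgfb3), 4:47353222-47414931 (Tgfbr1), 9:116084293-116175360 (Tgfbr2), 5:107106570-107289629 (Tgfbr3), 17:75005568-75392512 (Ltbp1), 13:56609523-56639562 (Tgfbi) and 18:75367529-75395935 (Smad7). All are protein-coding genes, and intron lengths below are those of GENCODE vM21.

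The members were set beside genes of like intron length. In epithelial-like cells Tgfbr1 (55.2 kb of intron), Tgfbr2 (82.9 kb) and Tgfbr3 (176.5 kb) lay between the 25th and 75th percentiles of their length class, and Ltbp1 (376.3 kb; log2 difference 1.12) lay just under the 25th percentile of 1.13. Tgfb2 (77.4 kb) at 2.54 was above the 75th percentile of 1.10, Tgfb3 (18.9 kb) at 1.98 above 0.38 and Smad7 (23.9 kb) at 0.81 above 0.67. Tgfb1 (13 kb) at -0.89 was below the 25th percentile of -0.60. In macrophage-like cells Tgfb2 at -3.93 was below the 25th percentile of 0.03 for its class. Tgfbr2 at -0.62 was also below 0.03 there, Ltbp1 at 0.08 was below the 25th percentile of 1.14 for its class, and Tgfbr1 at 1.27 was just above the 75th percentile of 1.22. In fibroblast-like cells Ltbp1 at 0.77 was below the 25th percentile of 1.36. In lymphatic endothelial-like cells Tgfbr3 at 1.29 lay between the 25th and 75th percentiles of 0.40 and 1.65. Tgfb2 at -1.20 and Tgfbi at -1.42 were there below the 25th percentiles of -0.10 and -0.48 for their classes. In tuft-like cells Tgfb3 at 2.00 and Smad7 at 1.15 were above the 75th percentiles of 0.16 and 0.38. In the epithelial minus macrophage interaction the medians went from 0.03 under 5 kb to -0.19 at 50 to 100 kb, -0.27 at 100 to 200 kb and -0.39 above 200 kb. Tgfb2, in the class of 50 to 100 kb, was at 6.54.

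**Figure D4:**
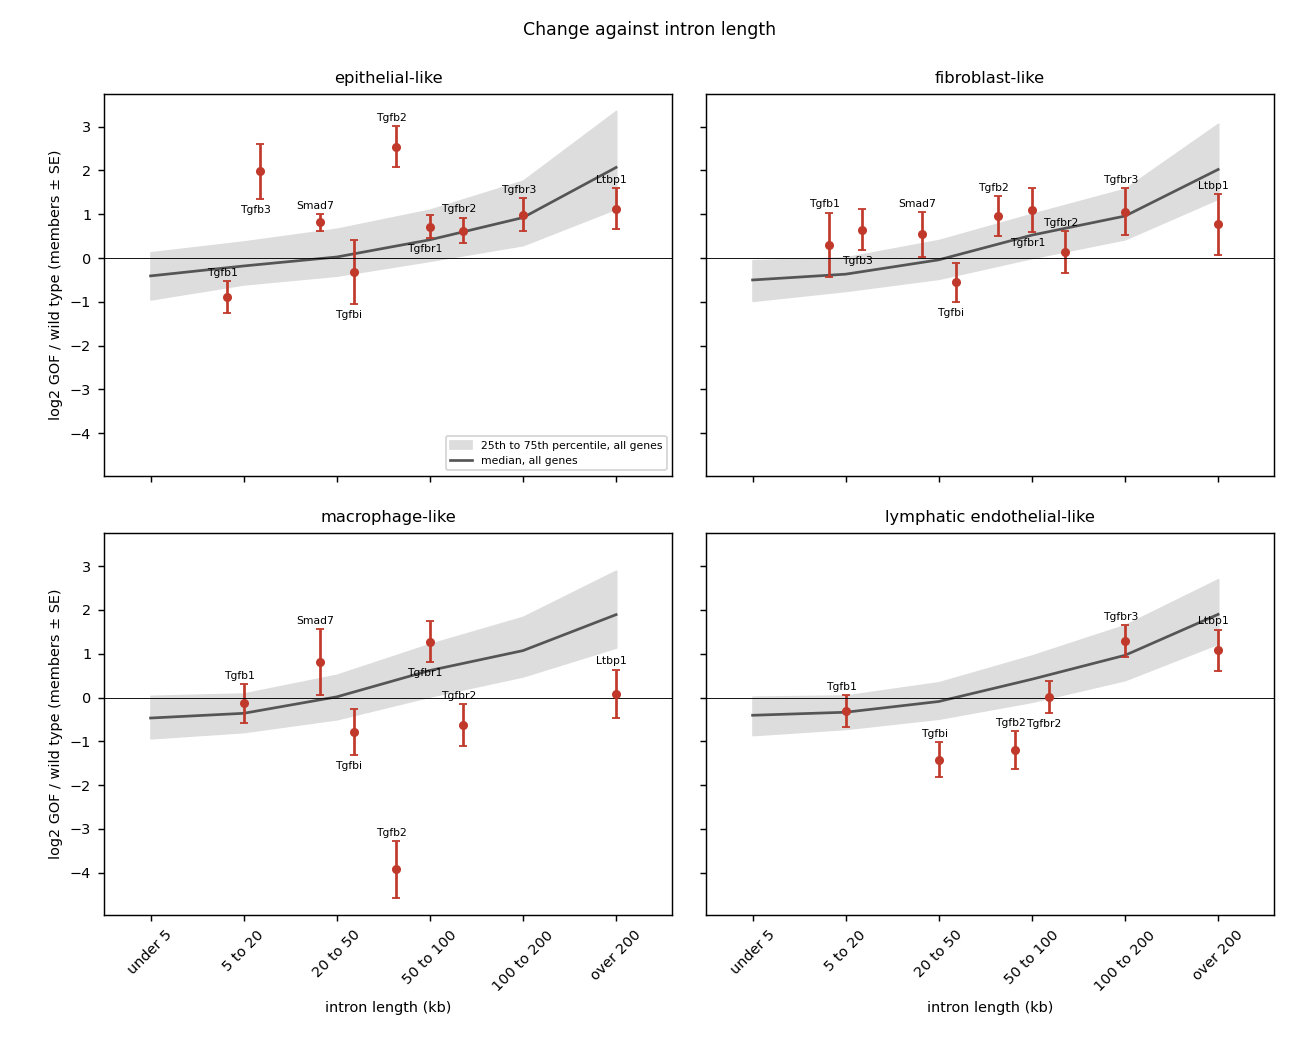
Log2 fold change of GOF over wild type against intron length in kb, for epithelial, fibroblast, macrophage and lymphatic endothelial-like cells; the line is the median of all genes tested in each length class, the band spans their 25th to 75th percentiles, and red points are the members with standard errors. The median climbs with intron length in all 4 panels, and Tgfb2 is above the band in epithelial-like and below it in macrophage-like cells.

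The mosaic design allowed the GOF epithelium to be divided by its own Wnt response. Cells were thinned to 5000 UMIs and grouped by their UMIs of 10 Wnt feedback genes such as Axin2, Nkd1 and Notum. Of 3336 GOF cells, 899 had none, 750 had 1 and 1687 had 2 or more, while 1235 shallower cells were left out. Only 49 of 2109, 27 of 470 and 18 of 275 wild-type cells had 2 or more. The cells of 1 library are not replicates, so levels are given with 95% Poisson intervals for counting error and no test.

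Tgfb3 followed the feedback genes. It was at 13.6 CPM in GOF cells with none (10.4 to 17.4), 23.2 CPM with 1 (18.6 to 28.6) and 58.4 CPM with 2 or more (53.4 to 63.8), and the 3 intervals did not overlap. Wild-type cells with none were at 7.53, 12 and 3.28 CPM. Tgfbr3 was at 9.79 CPM (7.11 to 13.1), 14.4 CPM (10.8 to 18.8) and 27.4 CPM (24 to 31.2), with the last interval above the other two. Ltbp1 ran the other way, at 15.1 CPM (11.7 to 19.2), 14.1 CPM (10.6 to 18.5) and 7.82 CPM (6.05 to 9.95). The members that had passed the test in epithelium did not follow the feedback genes to that degree. Tgfb2 was at 18.2 CPM (14.5 to 22.6), 22.4 CPM (17.9 to 27.7) and 23.7 CPM (20.5 to 27.2), and in wild-type cells with none it was at 1.39, 3.01 and 0 CPM. Smad7 was at 63.6 CPM (56.5 to 71.4), 65.9 CPM (57.9 to 74.6) and 72.7 CPM (67.0 to 78.7), against 22.9, 34.9 and 23.0 CPM. Ctnnb1 itself was at 276, 287 and 275 CPM in the 3 groups. GOF cells without a feedback UMI had Tgfb2 and Smad7 at levels above those of all 3 wild-type libraries in the same group. This was not particular to them. The levels of Tgfb3, Tgfbr1, Tgfbr2, Ltbp1 and Tgfbi were also above all 3, for example Tgfbr1 at 55.8 CPM against 26.4, 24.1 and 13.1 CPM. The intervals of Tgfb3 and of Tgfbr2 (33.2 to 44.9) overlapped those of wild type 2 (7.36 to 18.6 and 18.2 to 34.2). Tgfbi rested on 5 GOF UMIs (0.361 to 2.60), and its interval overlapped those of all 3. Tgfbr3 was below wild type 3, at 10.9 CPM, and Tgfb1 at 7.56 CPM was below all 3. At this depth a cell without a UMI may still express the feedback genes.

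**Figure D5:**
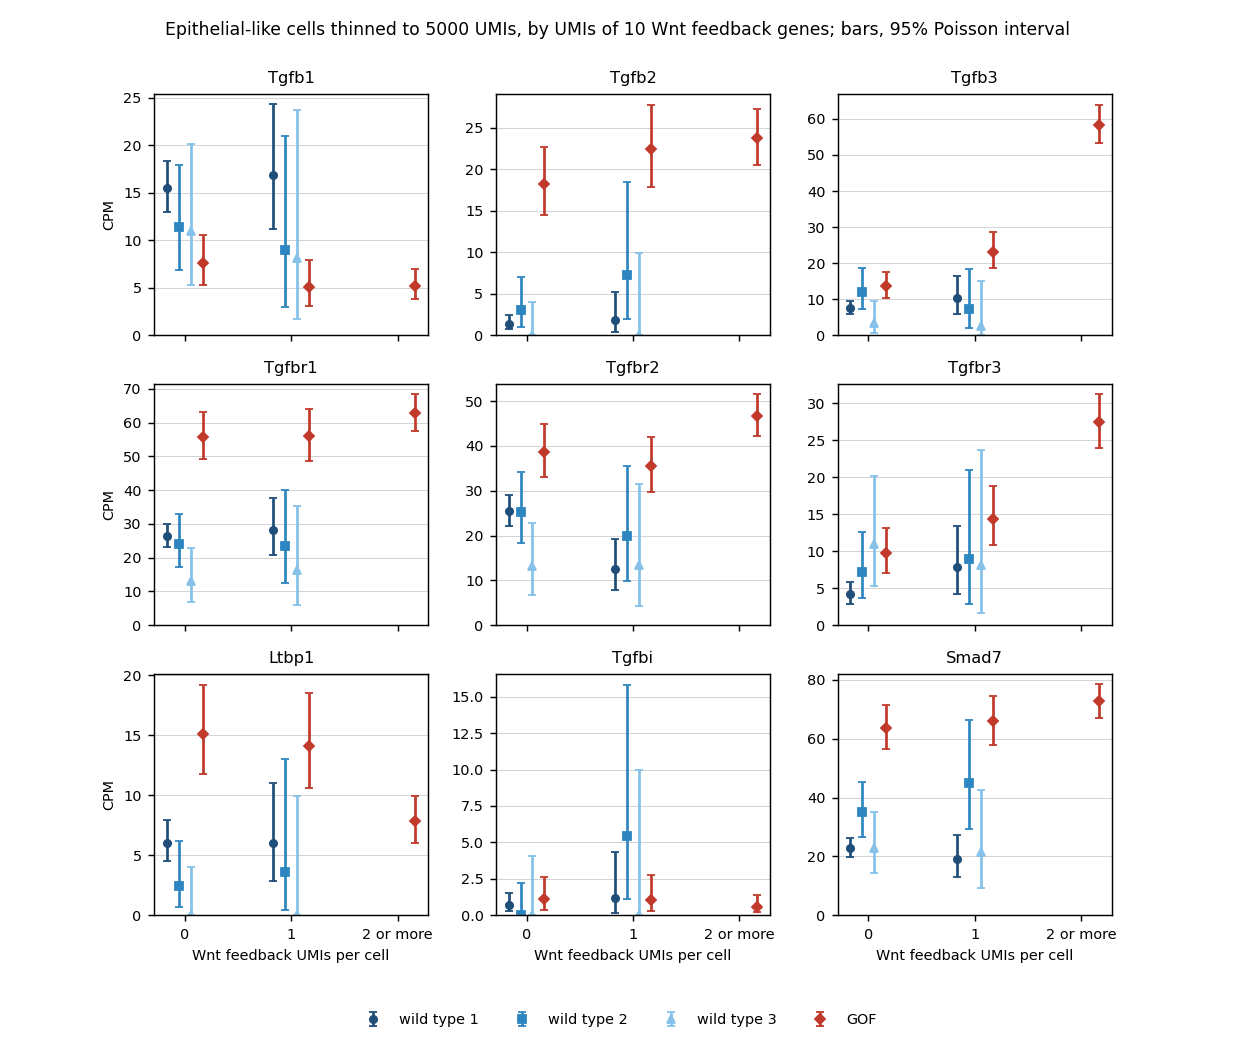
Level in CPM (linear axis, own scale per panel) of each member in epithelial-like cells thinned to 5000 UMIs, against the number of UMIs of 10 Wnt feedback genes in the cell (0, 1, or 2 or more); bars are 95% Poisson intervals, and wild-type cells with 2 or more are too few to draw. Tgfb3 climbs from 13.6 to 58.4 CPM in the GOF library, while Tgfb2 and Smad7, like most members, already lie above the wild type at 0. There the intervals of Tgfb3, Tgfbr2 and Tgfbi overlap with the wild type.

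Of the 58 other pathway genes, 51 were tested in epithelial-like cells, where 14 rose and none fell in edgeR, beside 11.7% of all genes called higher and 4.25% lower. The list's median log2 difference was 0.29 and that of all genes 0.00. Thbs1, which encodes the ligand-releasing thrombospondin 1, was at 202 CPM in the GOF library with wild-type levels of 5.09, 14.2 and 9.97 CPM, which is 4.03 on the log2 scale (SE 0.46, adjusted p = 0.00542) in a gene with 9.2 kb of intron. Its difference from the fibroblast effect was 3.13 (SE 0.51, adjusted p = 1.8e-04) and from the macrophage effect 4.97 (SE 0.52, adjusted p = 4.69e-18). In tuft-like cells it rose by 4.44 (SE 0.39). Itgb6, whose integrin activates latent ligand on epithelium, was at 50.6 CPM against 14.2, 16.5 and 7.39 CPM (1.60, adjusted p = 0.0365; 117.2 kb of intron). Among response genes of short introns, the cell cycle inhibitor gene Cdkn1a rose by 1.66 (adjusted p = 0.0498; 6.2 kb) and the matrix gene Ctgf by 1.48 (adjusted p = 0.0475; 0.4 kb).

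The other epithelial calls of the list were in genes with at least 60.6 kb of intron. They were the Smads and partners Smad2 (0.96), Trim33 (1.08) and Zfyve9 (1.66), the receptors Bmpr2 (0.81), Acvr1 (1.27) and Acvr2a (1.55), the ubiquitin ligase genes Smurf2 (1.38) and Nedd4l (2.33), and the response genes Tsc22d1 (1.39) and Ldlrad4 (4.64). Ldlrad4 has 330.0 kb of intron and was called higher in all 8 types. Called genes with shorter introns in other types were few. In lymphatic endothelial-like cells Ltbp4 was at 469 CPM against 1809, 1249 and 754 CPM (-1.60, SE 0.37, adjusted p = 4.67e-04). In macrophage-like cells the co-receptor gene Eng was at 12.5 CPM against 66.2, 42.8 and 33.6 CPM (-2.00, SE 0.52, adjusted p = 0.0223). In fibroblast-like cells Tnc, a matrix gene, was at 77.3 CPM in the GOF library with no UMI in the wild type, at least 28.8-fold higher than a floor of 3 counts over the wild-type group. In all, 3 of 47 genes of the list rose in fibroblast-like cells (4.36% of all genes called higher), 4 of 50 in mesothelial-like cells (4.76%), 2 of 26 in neutrophil-like cells (3.05%) and 2 of 14 in blood endothelial-like cells (11.6%). In macrophage-like cells 5 of 37 rose and 1 fell (7.97% of all genes higher, 2.27% lower). In lymphatic endothelial-like cells 3 of 31 rose and 1 fell (11.5% higher, 5.09% lower), and in tuft-like cells 7 of 40 rose and 1 fell (10.8% higher, 3.8% lower).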

How the data were processed

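Values in the deposited matrices are raw UMI counts for each gene and barcode. Per the labels' protocols they come from 10x 3′ libraries, version 3 chemistry. Per the file headers the authors used Cell Ranger 7.0.0 for the GOF and 3.0.2 for the wild-type matrices, while the submitters' processing notes name Cell Ranger 7.1 and mm10. The gene reference release is not given in the sources used here. Totals per library and counting intervals stand in the report. Genes were joined by identifier, and 30329 of 30406 (99.7%) had a GENCODE vM21 entry for intron lengths. Barcodes needed at least 500 genes and no more than 25% mitochondrial UMIs, and the highest Scrublet scores (scanpy 1.11.5) were left out at 0.8% per 1000 barcodes, 932, 247, 69 and 57 cells. A cell entered a class with at least 3 of its markers detected (6 for pancreatic acinar, 4 for Schwann and erythroid lists) and 2 times the share of any unrelated list; more specific classes had precedence. The gate was set after marker counts were seen. UMIs were summed per library and class and tested with edgeR 4.0.16 in R 4.3.3 (TMM, filterByExpr, quasi-likelihood, Benjamini-Hochberg at 0.05 over all genes tested), with the library as a block between types; scripts were tested on simulated data. Alternatives were DESeq2 1.42.0, no TMM factors, no filter, leaving out each wild-type library, a stricter gate, doublets kept and at least 200 genes. Named pathway genes were up to 4 per group of the list with the largest called difference and at least 10 UMIs; 3 most alike genes were named per member. CPM in the text has no TMM factors, fitted folds do. The members and all lists were chosen with earlier results of these data known.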

Additional observations from a re-analysis of the deposited data

Results flagged for a closer look

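The change of Tgfb2 differed between cell types of the same libraries. The epithelial minus macrophage difference was 6.54 on the log2 scale (SE 0.73, edgeR adjusted p = 7.25e-16), with Tgfb2 higher in the GOF library than in 3 of 3 wild-type libraries in epithelial-like cells and lower than in 3 of 3 in macrophage-like cells.

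Signal above the wild type was also seen in classes with too few cells to compare. The cases named were picked for having at least 20 GOF UMIs and more than 2 times the level of the highest wild-type library. Tgfbr2 was at 194 CPM in 24 B and plasma-like cells of the GOF library, where 72, 13 and 9 wild-type cells gave 34.0, 47.5 and 25.1 CPM. Tgfbr3 was at 101 CPM in 138 smooth muscle and pericyte-like cells of the GOF library, where 7, 36 and 54 wild-type cells gave 39.4, 39.1 and 39.7 CPM. The wild-type sums held only 264821, 21039 and 39826 UMIs of B and plasma-like cells. Those of smooth muscle and pericyte-like cells held 25400, 102396 and 151304, so most of these wild-type values rest on very few counts. Neither difference was tested, nor was the part of intron length (82.9 kb in Tgfbr2 and 176.5 kb in Tgfbr3).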

How the results depend on the processing

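The 9 members differing between wild-type types remained 9 under each alternative, including 9 with no replicate block. No paired analysis was possible because the GOF group has 1 library, whose number comes from accession order alone. In epithelial-like cells 2 members were called, but 5 without TMM factors and 0 to 3 on leaving out each wild-type library (0 without wild type 1). Over all genes the calls there were 2487 of 15564 with the main settings and 3411 of 15564 without TMM factors. They were 1401 of 14146, 1678 of 16077 and 3452 of 16067 without wild type 1, 2 and 3. In macrophage-like cells 1 was called, 2 with no filter on low counts and 1 to 2 on leaving out each library. All-gene calls there were 780 of 7618 with the main settings and 1266 of 17190 with no filter. Without wild type 1, 2 and 3 they were 931 of 8030, 968 of 6741 and 1246 of 7891. In the other types together 5 were called, 0 with DESeq2, 3 with the stricter gate, 3 with at least 200 genes and 3 to 6 on leaving out each library. Those 5 were in lymphatic endothelial-like and tuft-like cells, where edgeR called 628 of 3794 and 1414 of 9670 genes. DESeq2 called 161 and 435 of the same genes, the stricter gate 555 of 3614 and 1351 of 9711, and at least 200 genes 643 of 4033 and 1460 of 9691. For the interaction with fibroblasts the count of 0 became 0 to 1, and with macrophages the count of 1 became 1 to 2, in each case the higher without wild type 2. All-gene calls without wild type 2 were 135 of 14351 and 351 of 14542, against 100 of 14487 and 380 of 14646 with the main settings. For single members, 481 alternative values kept direction and call, 11 gained a call, 19 lost one and 18 reversed, none of the 18 called with the main settings; the cause was not tested. Ranges that follow are over leaving out each wild-type library. Reversed GOF effects were Tgfbi in epithelium (0.050 without TMM factors, 0.42 with doublets kept), Tgfb1 (-0.071 to 0.77) and Tgfbr2 (-0.0074 to 0.31) in fibroblasts, and Tgfb1 (-0.21 to 0.053) and Ltbp1 (-0.14 to 0.59) in macrophages. Reversed epithelial minus fibroblast differences were Tgfbr1 (-0.65 to 0.037), Tgfbr3 (0.060 without TMM factors, -0.47 to 0.38), Tgfbi (-0.045 to 0.61), Ltbp1 (-0.50 to 0.76) and Smad7 (-0.025 with doublets kept). Reversed epithelial minus macrophage differences were Tgfbr3 (-8.10 to 0.68, the lower value from sums at 0 UMIs in wild type 1 and 2 and no measure of size), Tgfbi (-0.30 to 1.31) and Smad7 (-0.14 with no filter, -0.55 to 0.34). Without TMM factors the calls over all genes in epithelium moved from 1826 higher and 661 lower to 3102 and 309, and in lymphatic endothelium from 435 and 193 to 595 and 115. Depth limits wild type 3 most, with 9558637 UMIs.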
